A study of Mus musculus with 14 samples.

Results

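The Toll-like receptor genes Tlr1, Tlr2, Tlr3, Tlr4, Tlr5, Tlr6, Tlr7, Tlr8, Tlr9 and Tlr13 were followed across 3 groups of mice: non-transgenic (NTG), vehicle-treated APP/PS1 and CP2-treated APP/PS1. The genes were taken by symbol from the count table, and all 10 were found there, each on a single row, among 43346 genes. Toll-like receptors are innate immune receptors that bind microbial molecules and some molecules released by damaged cells. Tlr1, Tlr2, Tlr4, Tlr5 and Tlr6 act at the cell surface, whereas Tlr3, Tlr7, Tlr8, Tlr9 and Tlr13 act in endosomes and bind nucleic acids. They signal through the adaptors Myd88 or Ticam1 to NF-kB and to interferon regulatory factors. In the brain microglia are the best known source of most of them, and astrocytes also express Tlr3.

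RNA was sequenced from a cross-section of brain that held hippocampus and cortex, taken from each of 14 female mice (strain C57BL/6;SJL-Tg) that were 23 months old. The groups were 4 NTG littermates without transgenes, 5 APP/PS1 +/+ mice, which carry transgenes with familial Alzheimer's disease mutations in APP and PS1, and 5 APP/PS1 mice given CP2, a small-molecule inhibitor of mitochondrial complex I. The CP2 dose was 25 mg/kg/day, taken with drinking water that held 0.1% PEG, and treatment began at 9 months and lasted 14 months. The other mice are described in the treatment protocol as having received the 0.1% PEG vehicle, although their treatment label reads non-treated. Mice are named by library number, 7 to 10 for NTG, 16 to 20 for APP/PS1 and 21 to 25 for CP2-treated APP/PS1.

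Total counts ranged from 70548781 to 106235625 per mouse, so that 3 counts, the smallest number taken as detected, corresponded to 0.0282 to 0.0425 CPM (counts per library scaled to a common total). Every one of the 10 genes had at least 10 counts in every mouse. APP/PS1 mouse 16 stood apart: genes of the striatum, a region outside the stated dissection, summed to 2532 CPM in it and to between 201 and 386 CPM in the other 13 mice. For the Toll-like receptor genes tested, fold changes on the library scale that involve this group are therefore also given without mouse 16. Genes of the thalamus (8 genes) summed to 483 to 716 CPM in NTG, 233 to 530 CPM in vehicle-treated and 483 to 704 CPM in CP2-treated APP/PS1 mice. Mouse 16 was the lowest. None of the 8 had an adjusted p under 0.05 by edgeR. All 8 estimates lay below 0 in APP/PS1 against NTG mice and above 0 in CP2 against vehicle. The part of tissue content in the comparisons was not tested. The tissue was bulk, so more cells of a type and more RNA per cell cannot be told apart.

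The 10 genes differed widely in level. Levels of different genes were compared on the deposited RPKM values, which divide by gene length. In NTG mice Tlr3, the receptor for viral RNA duplexes, was by far the highest, at 3.16 ± 0.120 RPKM (SD, n = 4), with no overlap with the next gene, Tlr2, at 0.733 ± 0.0844 RPKM. Tlr2, Tlr7, Tlr13, Tlr9, Tlr4, Tlr1, Tlr6 and Tlr5 followed in that order of mean RPKM, and the range over NTG mice of each overlapped that of the next. Tlr5 measured 0.0951 ± 0.0192 RPKM and Tlr8 was lowest at 0.0421 ± 0.0155 RPKM, and the ranges of these 2 genes did not overlap.

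In vehicle-treated APP/PS1 mice the order of mean RPKM was Tlr3, Tlr2, Tlr7, Tlr13, Tlr1, Tlr9, Tlr6, Tlr4, Tlr5 and Tlr8. Tlr3 at 4.02 ± 0.842 RPKM, Tlr2 at 3.33 ± 1.28 RPKM and Tlr7 at 2.90 ± 0.372 RPKM (SD, n = 5) overlapped as neighbours. They were not set apart from the genes below, since Tlr2 went down to 1.64 RPKM and Tlr13 up to 2.01 RPKM. Gaps between neighbours without overlap lay only between Tlr7 and Tlr13 and between Tlr4 and Tlr5. In CP2-treated APP/PS1 mice the order was Tlr3, Tlr2, Tlr7, Tlr13, Tlr9, Tlr1, Tlr4, Tlr6, Tlr5 and Tlr8. There the gaps between neighbours without overlap lay between Tlr13 and Tlr9 and between Tlr6 and Tlr5, although Tlr1 reached 1.17 RPKM and Tlr13 went down to 1.12 RPKM.

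The make-up of the family differed accordingly. Tlr3 made up 47.8% ± 3.34 (SD, n = 4) of the RPKM summed over the 10 genes in NTG mice, 26.3% ± 3.32 in APP/PS1 mice and 29.7% ± 1.55 in CP2-treated APP/PS1 mice (n = 5 each). The Tlr2 share was 11.1% ± 0.801 in NTG, 21.1% ± 4.79 in APP/PS1 and 21.1% ± 2.12 in CP2-treated mice. The Tlr7 share was 10.7% ± 1.03, 19.3% ± 3.41 and 15.5% ± 1.43 in the same order. For Tlr3, Tlr2 and Tlr7 the NTG range overlapped neither APP/PS1 group, whereas the ranges of the APP/PS1 groups overlapped each other. The summed level itself was 6.64 ± 0.616 RPKM in NTG, 15.3 ± 2.91 RPKM in APP/PS1 and 12.2 ± 2.59 RPKM in CP2-treated APP/PS1 mice.

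**Figure D1:**
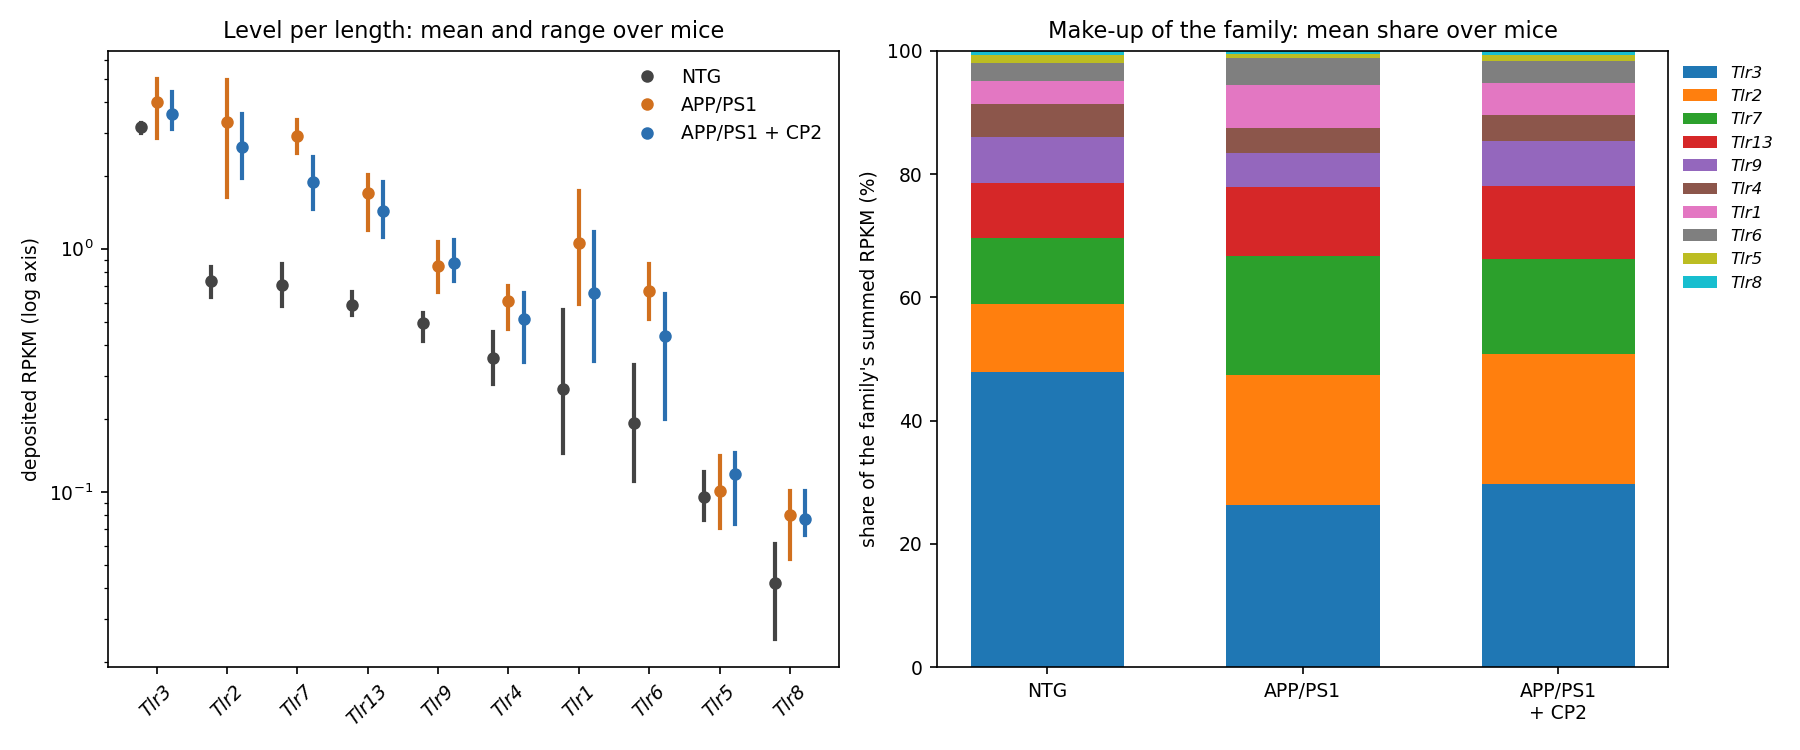
Left, deposited RPKM of the 10 Toll-like receptor genes on a log axis, with the mean (point) and the range over mice (line) for NTG (n = 4), APP/PS1 (n = 5) and CP2-treated APP/PS1 mice (n = 5). Right, each gene's mean share (%) of the family's summed RPKM, where Tlr3 takes 47.8% in NTG and 26.3% in APP/PS1 mice.

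The cell-surface genes that bind bacterial lipopeptides are Tlr2 and its partners Tlr1 and Tlr6. In the deposited mm10 annotation Tlr2 lies at chr3:83836272-83841767, and Tlr1 (at chr5:64924811-64932761) and Tlr6 (at chr5:64953106-64960048) are neighbours on the same strand. The transcripts of Tlr1 and Tlr6 shared an identical run of 229 bases, and 7.80% of the 101-base stretches of Tlr1 and 7.01% of those of Tlr6 occurred in the other gene. Reads from this run cannot be assigned to either gene by sequence alone, and no other pair among the 10 genes shared any 101-base stretch. RefSeq promoter windows (GRCm38.p6, the build named mm10) of 250 bases before a start site were matched for 8 of the 10 genes (all but Tlr4 and Tlr7), and those of Tlr2, Tlr1 and Tlr6 are shown because these genes had 3 of the 4 largest fold changes between genotypes. Bases that lie in exons of the GENCODE annotation were left out, and all 3 stretches are on the minus strand. Capitals mark letters that match either of 2 motifs searched on both strands. The PU.1-type motif, named for the factor that Spi1 encodes, is GAGGAAGT, and the ISRE-type motif, bound by interferon regulatory factors, is GAAA, any 2 bases and GAAA again. The capitals in Tlr6 are 2 overlapping ISRE-type matches on the reverse strand, and a match is a description of the letters.
Tlr2, chr3:83841768-83841858: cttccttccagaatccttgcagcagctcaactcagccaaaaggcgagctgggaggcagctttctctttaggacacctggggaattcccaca
Tlr1, chr5:64933564-64933808: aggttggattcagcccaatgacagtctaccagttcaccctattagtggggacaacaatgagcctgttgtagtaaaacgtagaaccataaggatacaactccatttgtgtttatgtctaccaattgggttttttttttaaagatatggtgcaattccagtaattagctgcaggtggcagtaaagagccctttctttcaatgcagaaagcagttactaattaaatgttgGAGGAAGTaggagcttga
Tlr6, within the gene, chr5:64959167-64959416: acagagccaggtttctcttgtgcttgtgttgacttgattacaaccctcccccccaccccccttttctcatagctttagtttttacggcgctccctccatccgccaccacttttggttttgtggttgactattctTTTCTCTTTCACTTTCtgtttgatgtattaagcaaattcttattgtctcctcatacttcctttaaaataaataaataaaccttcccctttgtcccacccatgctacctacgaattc
The PU.1-type letters occurred in 2.44% and the ISRE-type letters in 2.98% of 32851 RefSeq promoter windows of this length. Tlr1 and Tlr6 each have another window, which held neither.

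Tlr2 had the largest log2 fold change of the 8 genes tested in vehicle-treated APP/PS1 against NTG mice in the fit of all mice. It measured 3.13, 2.86, 2.42 and 2.61 CPM in NTG mice 7 to 10 and 5.93, 12.3, 13.9, 18.2 and 9.60 CPM in APP/PS1 mice 16 to 20. All 5 APP/PS1 mice lay above all NTG mice, and mouse 16 was the lowest of the 5. The log2 fold change was 2.12 (SE 0.28, edgeR quasi-likelihood test, adjusted p = 0.00162), and 2.29 without mouse 16. The order at the top was not firm: Tlr1 was ahead of Tlr2 with limma-voom, without NTG mouse 7 and without APP/PS1 mouse 18, and Tlr7 without mouse 19.

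Tlr1, which pairs with Tlr2, measured 1.84, 0.550, 0.651 and 0.457 CPM in NTG and 3.12, 3.20, 1.83, 5.59 and 3.09 CPM in APP/PS1 mice. NTG mouse 7 stood apart from its group and reached the level of APP/PS1 mouse 18, so the groups overlapped. The log2 fold change was 1.93 (SE 0.45, adjusted p = 0.0335 by edgeR). This call depended on single mice, since leaving out any of NTG mice 8, 9 and 10 or APP/PS1 mice 17, 19 and 20 gave an adjusted p from 0.0627 to 0.114. Without NTG mouse 7 the log2 fold change was 2.60 (adjusted p = 0.00448).

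Tlr6, the other partner of Tlr2, measured 1.07, 0.372, 0.626 and 0.415 CPM in NTG and 1.67, 2.17, 1.55, 2.73 and 2.35 CPM in APP/PS1 mice. Mouse 7 was again the highest NTG mouse, but the groups did not overlap. Tlr6 rose by a log2 fold change of 1.74 (SE 0.31, adjusted p = 0.00912 by edgeR). Tlr1 and Tlr6 passed the filter on low counts only through the APP/PS1 group, so that a test at this filter depended on high values in that group. Without any filter both were called too (edgeR, adjusted p = 0.0251 and 0.00639 over 33522 genes).

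Tlr4, the receptor for bacterial lipopolysaccharide, lies at chr4:66827584-66930284 and measured 3.12, 2.35, 2.54 and 1.85 CPM in NTG and 3.11, 4.46, 4.38, 4.63 and 3.59 CPM in APP/PS1 mice. NTG mouse 7 and APP/PS1 mouse 16 met at 3.1 CPM, so the groups overlapped slightly. The rise was smaller than that of the lipopeptide receptors, with a log2 fold change of 0.71 (SE 0.17, adjusted p = 0.0412 by edgeR). With single mice left out, 7 of 9 fits lost the call, with adjusted p from 0.0619 without mouse 20 to 0.110 without mouse 8, and held without mouse 7 (0.0270) or mouse 16 (0.0130). The other lost calls were those without NTG mice 9 and 10 and APP/PS1 mice 17, 18 and 19.

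Tlr5, the flagellin receptor at chr1:182954788-182976044, had counts below the filter, and no difference was detected. It measured 0.714, 0.476, 0.588 and 0.489 CPM in NTG and 0.560, 0.492, 0.579, 0.818 and 0.421 CPM in APP/PS1 mice, and the groups overlapped almost fully (exact permutation test, two-sided, p = 0.921, with 0.00794 the smallest p this design allows). With 32 to 65 counts per mouse in these groups, Tlr5 did not pass the filter of 1 CPM in every mouse of a group, and edgeR without the filter gave a log2 fold change of 0.00 (SE 0.24, adjusted p = 0.997).

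**Figure D2:**
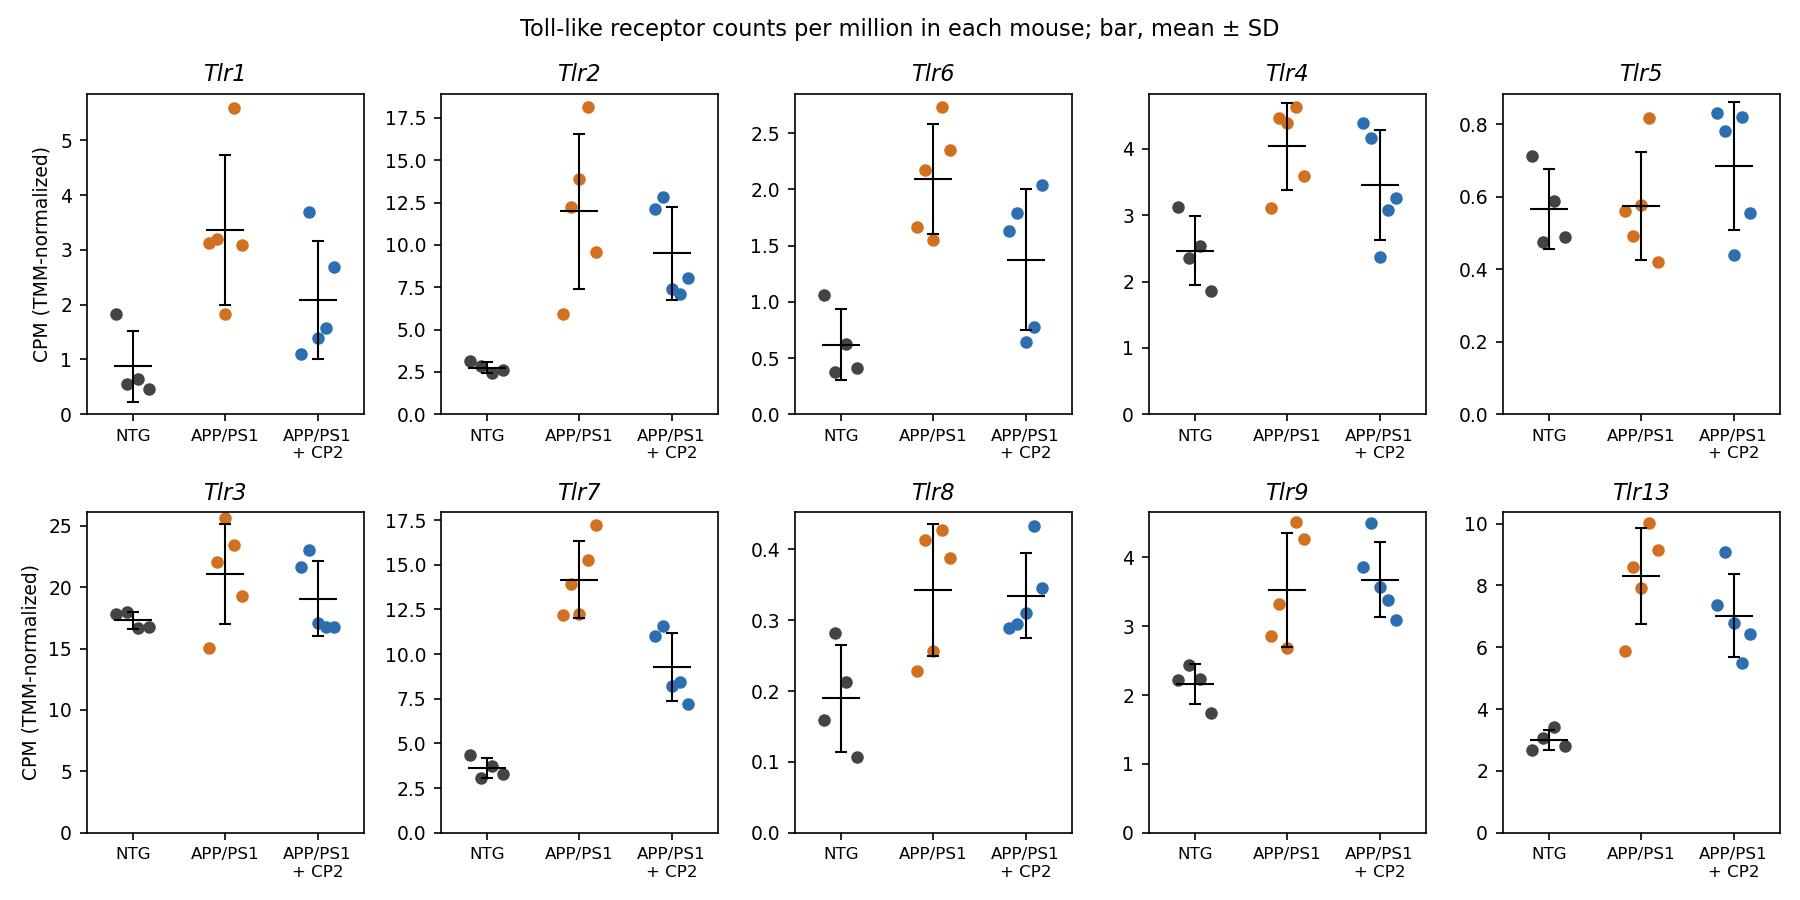
CPM (TMM-normalized) of each Toll-like receptor gene in every mouse, with 1 panel per gene and its own axis from 0. Points are mice in order of library number from left to right, bars are the mean ± SD, and groups are NTG (n = 4), APP/PS1 (n = 5) and CP2-treated APP/PS1 (n = 5). Tlr2, Tlr7, Tlr9 and Tlr13 lie higher in every APP/PS1 mouse than in any NTG mouse, and Tlr7 separates the APP/PS1 groups.

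Tlr7, a receptor for single-stranded RNA at chrX:167304929-167330558, had the smallest p of the 8 genes tested in APP/PS1 against NTG mice. It measured 4.35, 3.06, 3.72 and 3.32 CPM in NTG and 12.2, 13.9, 12.2, 15.3 and 17.2 CPM in APP/PS1 mice, without overlap. The lowest APP/PS1 mouse lay far above the highest NTG mouse, and mouse 16 did not stand apart from its group. The log2 fold change was 1.97 (SE 0.14, adjusted p = 0.000119 by edgeR), which is 3.92-fold.

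Tlr13, at chrX:106143204-106160493, recognizes bacterial ribosomal RNA in mice. It measured 2.69, 3.05, 3.42 and 2.82 CPM in NTG and 5.88, 8.58, 7.92, 10.01 and 9.14 CPM in APP/PS1 mice, and the groups did not overlap. The log2 fold change was 1.47 (SE 0.15, adjusted p = 0.000512 by edgeR). The part of its promoter window outside GENCODE exons, on the plus strand, is printed as that of the one endosomal gene called with such a window.
Tlr13, chrX:106143025-106143203: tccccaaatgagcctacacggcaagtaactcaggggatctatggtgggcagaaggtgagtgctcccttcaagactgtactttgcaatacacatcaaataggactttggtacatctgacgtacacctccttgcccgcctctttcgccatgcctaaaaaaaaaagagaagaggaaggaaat
Beside the PU.1-type and ISRE-type motifs, an ETS-IRF composite (GGAA, any 2 bases, GAAA, in 2.30% of all windows) and an NF-kB-type motif (GGGA, any base, TTTCC, in 0.356%) were searched on both strands. No match to any of the 4 motifs lay in the full windows of Tlr2, Tlr5, Tlr8, Tlr9 or Tlr13. Only the letters given were searched, so a window without a match may hold another form of a motif. Tlr3 held a single NF-kB-type match that began 211 bases before the start, in a part that GENCODE annotates as exonic.

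Tlr9, at chr9:106222598-106226883, binds unmethylated CpG DNA and measured 2.2, 2.44, 2.2 and 1.74 CPM in NTG and 2.86, 3.32, 2.68, 4.52 and 4.27 CPM in APP/PS1 mice. The groups did not overlap, yet the difference missed the threshold, with a log2 fold change of 0.71 (SE 0.18, adjusted p = 0.0531 by edgeR). It passed without mouse 16 (adjusted p = 0.0256) or mouse 18 (0.0376), and under 5 of the 8 other settings.

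Tlr3, the most abundant gene of the family per length, was the least different in relative terms among the 8 genes tested. It lies at chr8:45395665-45410608 and measured 17.8, 17.97, 16.7 and 16.8 CPM in NTG and 15.04, 22.01, 25.6, 23.4 and 19.3 CPM in APP/PS1 mice. Mouse 16 fell below every NTG mouse and the other 4 lay above, and the log2 fold change was 0.28 (SE 0.13, adjusted p = 0.291 by edgeR). Without mouse 16 it was 0.38 (adjusted p = 0.0184). The antisense gene Gm45542 shares 381 exonic bases with Tlr3 and has no row in the count table. Reads of the pair cannot be told apart if strand was not used in counting.

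Tlr8, next to Tlr7 at chrX:167242696-167264329, is an RNA receptor related to Tlr7 and had the fewest counts, 14, 19, 17 and 10 in NTG and 20, 37, 28, 34 and 35 in APP/PS1 mice. These correspond to 0.159, 0.283, 0.213 and 0.106 CPM and 0.229, 0.414, 0.257, 0.428 and 0.388 CPM. The groups overlapped (exact permutation test, two-sided, p = 0.0635), and the gene did not pass the filter.

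In all, 6 of the 8 genes tested had an adjusted p under 0.05 in APP/PS1 against NTG mice, all 6 higher, against 5.68% of the 16417 genes tested in either direction and 4.34% higher. Tlr2, Tlr6, Tlr7, Tlr9 and Tlr13 had no overlap between groups, against 9.97% of all genes tested in either direction and 6.15% higher. Tlr1 and Tlr6 passed the filter only through the APP/PS1 group, so these counts describe the genes that passed and support nothing further. Without mouse 16 all 8 genes were called, with log2 fold changes of 1.95 for Tlr1, 1.81 for Tlr6, 0.79 for Tlr4, 2.02 for Tlr7, 1.57 for Tlr13 and 0.78 for Tlr9. With all mice the median log2 fold change over the 8 genes was 1.61, and over all genes tested it was -0.00. Of the mouse Toll-like receptors outside the group of 10, Tlr12 rose from 0.713 ± 0.0844 to 2.15 ± 0.551 CPM (SD, log2 fold change 1.59, adjusted p = 0.00139 by edgeR), having passed the filter only through the APP/PS1 group. Tlr11 averaged 0.0232 ± 0.0259 and 0.0245 ± 0.0197 CPM, below the level of 3 counts.

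Markers of other immune cells were examined beside these differences. Border macrophage genes (8 genes, among them Mrc1, Cd163 and Lyve1) summed to 13.6 to 18.4 CPM in NTG and 17.98 to 23.6 CPM in APP/PS1 mice, and 0 of the 4 that could be tested were called by edgeR, with 1 at an unadjusted p under 0.05. Monocyte and neutrophil genes (10 genes) summed to 3.12 to 10.6 and 4.22 to 7.87 CPM, and Ly6g, which marks neutrophils, never exceeded 0.0850 CPM. The 1 gene of this list that could be tested was not called by edgeR, at an unadjusted p under 0.05. Ly6c2 ranged from 1.54 to 1.96 CPM in NTG and 2.26 to 4.44 CPM in APP/PS1 mice, and Plac8 from 0.0595 to 0.136 and 0.214 to 0.781 CPM. The means of S100a8, S100a9, Ly6g, Retnlg, Mpo, Ngp and Camp were lower in APP/PS1 than in NTG mice. Lymphocyte genes (10 genes) summed to 1.29 to 1.99 and 2.78 to 23.4 CPM, the highest value being mouse 16 with 21.4 CPM of Cd4. Without mouse 16 the APP/PS1 sums were 2.78 to 3.37 CPM, still above all NTG mice. Cd3e, which marks T cells, stayed at or below 0.312 CPM in all mice but averaged 0.0545 CPM in NTG and 0.212 CPM in APP/PS1 mice. Means of Cd3g (0.0597 and 0.253 CPM), Cd8a (0.140 and 0.575 CPM) and Nkg7 (0.0556 and 0.306 CPM) were also higher, and that of Ncr1 was lower. No lymphocyte gene passed the filter, so none was tested by edgeR. All 9 broad microglia genes (among them Aif1, Csf1r, Itgam and C1qa) were called higher. Of the 9 homeostatic microglia genes (P2ry12, Tmem119, Cx3cr1 and others) 5 were called higher. The broad list summed to 375 to 387 CPM in NTG and 745 to 1168 CPM in APP/PS1 mice. The part of the other cell type lists in the differences was not tested.

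The Toll-like receptor genes were therefore also measured against microglia genes, by replacing the library normalization with the mean log level of the 9 homeostatic genes in each mouse. On this scale most genes of the brain fall, and in APP/PS1 against NTG mice 91.3% of all genes tested were called lower and 1.61% higher. Tlr2, Tlr7, Tlr1, Tlr6 and Tlr13 were called higher, with log2 fold changes of 1.37 (SE 0.23), 1.20 (0.18), 1.16 (0.30), 0.97 (0.26) and 0.71 (0.20). Tlr4 at -0.03 (95% interval -0.47 to 0.42) and Tlr9 at -0.07 (-0.49 to 0.35) were not called. Tlr3 was called lower, at -0.45 (SE 0.18, adjusted p = 0.0154 by edgeR). Without mouse 16 the values were 1.53 for Tlr2, 1.22 for Tlr7, 1.15 for Tlr1, 1.01 for Tlr6, 0.78 for Tlr13, 0.03 for Tlr4, -0.03 for Tlr9 and -0.38 for Tlr3, with the same 6 genes called.

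The reference mattered. Against the 9 broad microglia genes, which themselves rose more, Tlr2 at 0.78 (adjusted p = 0.00105) and Tlr7 at 0.67 (0.000655) kept a call higher, against 0.573% of all genes. Tlr1 at 0.64, Tlr6 at 0.44 and Tlr13 at 0.15 were not called, and Tlr4 at -0.58, Tlr9 at -0.61 and Tlr3 at -1.02 were called lower, as were 96.9% of all genes. Another reference, of 9 genes of plaque-associated microglia (among them Trem2, Itgax and Cst7), was added after seeing the data. These genes rose most of the 3 lists, with a median log2 fold change of 2.12 and 7 of 9 called. Against them no Toll-like receptor gene was called higher by edgeR, as were 0.14% of all genes. Tlr2 was at 0.08 (95% interval -0.38 to 0.53), Tlr7 at -0.01 (-0.43 to 0.41), Tlr1 at 0.02 (-0.56 to 0.60) and Tlr6 at -0.20 (-0.73 to 0.32), with none at an unadjusted p under 0.05. Tlr13 at -0.56, Tlr4 at -1.27, Tlr9 at -1.31 and Tlr3 at -1.73 were called lower, as were 99% of all genes. Tlr2 and Tlr7 thus rose more between genotypes than the homeostatic and broad lists did. No difference between their rise and that of the plaque-associated list was detected.

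**Figure D3:**
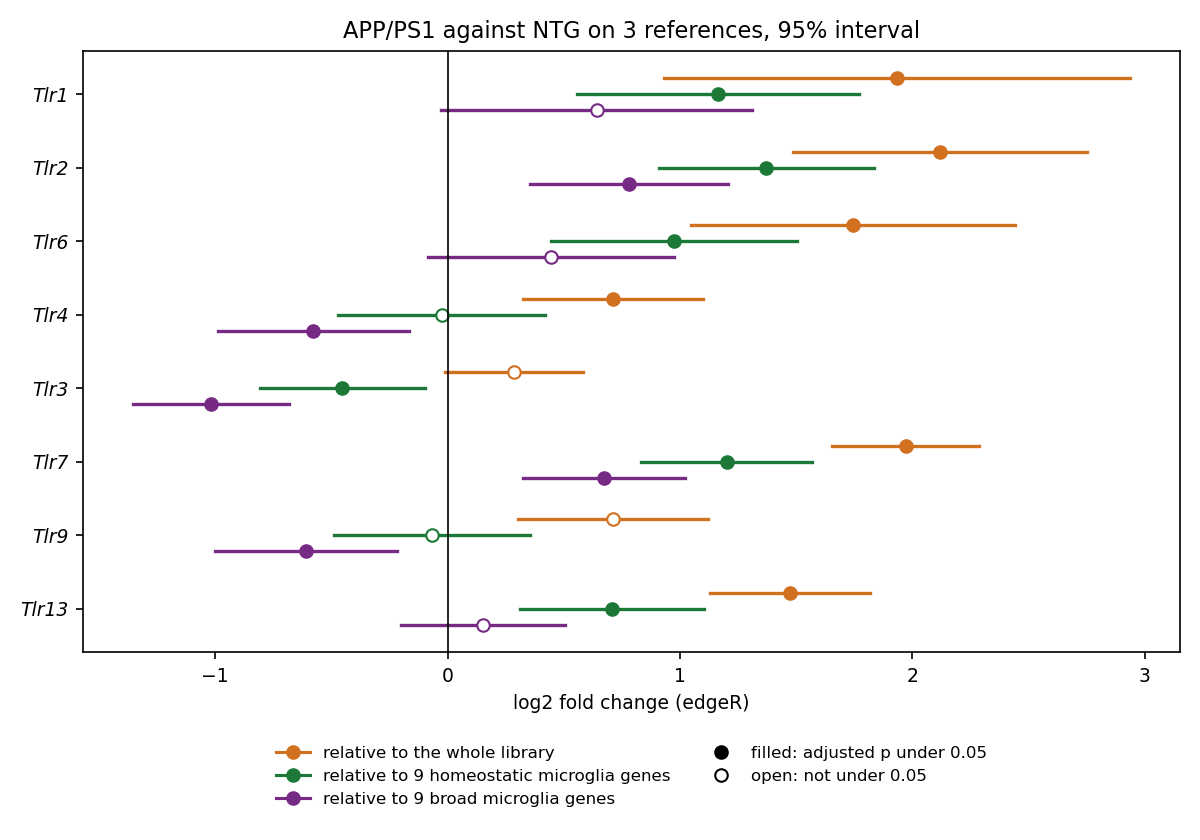
Log2 fold changes (x axis) of the 8 Toll-like receptor genes tested in APP/PS1 (n = 5) against NTG mice (n = 4), with 95% intervals as lines. The 3 colours stand for 3 references, and filled points have an adjusted p under 0.05. Tlr2 and Tlr7 are filled to the right of 0 on each of the 3 references drawn, and Tlr3, Tlr4 and Tlr9 are filled to the left of 0 against the broad microglia genes.

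CP2 was then compared with vehicle within APP/PS1 mice. None of the 8 genes tested had an adjusted p under 0.05 by edgeR, and 1 gene, Tlr7, had an unadjusted p under 0.05. Over all 16407 genes 0.00609%, a single gene, was called, and 6.55% had an unadjusted p under 0.05. DESeq2 called Tlr7 as 1 of 23 genes in the table.

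Tlr7 measured 11.02, 11.6, 8.19, 8.46 and 7.20 CPM in CP2-treated mice 21 to 25, against 12.2, 13.9, 12.2, 15.3 and 17.2 CPM in vehicle-treated mice 16 to 20. Every CP2-treated mouse lay below every vehicle-treated mouse, as was the case in this direction for 0.616% of all genes tested, and every CP2-treated mouse lay above every NTG mouse. The log2 fold change was -0.61 (SE 0.14, 95% interval -0.93 to -0.30, adjusted p = 0.744 by edgeR, and 0.00135 before adjustment), which is 0.654-fold. DESeq2 gave -0.61 (adjusted p = 0.0348). With each of the 10 mice left out in turn, the log2 fold change stayed between -0.70 and -0.53, and it was -0.66 without mouse 16. Relative to homeostatic microglia genes it was -0.48 (95% interval -0.83 to -0.13, adjusted p = 0.633 by edgeR), on a scale where 0.134% of all genes were called lower and 0.146% higher. The homeostatic microglia genes themselves summed to 294 to 430.3 CPM in vehicle-treated and 259 to 353 CPM in CP2-treated mice, and 0 of 9 were called by edgeR, with none at an unadjusted p under 0.05 and all 9 estimates below 0.

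The lipopeptide receptors had lower means with wide spreads. Tlr1 measured 1.11, 3.70, 1.40, 1.57 and 2.70 CPM in CP2-treated mice (log2 fold change against vehicle -0.68, 95% interval -1.47 to 0.10, and -0.70 without mouse 16). Tlr6 measured 1.63, 1.79, 0.647, 0.773 and 2.04 CPM (log2 fold change -0.61, 95% interval -1.29 to 0.06, and -0.68 without mouse 16), with mice 23 and 24 in the NTG range and the other 3 above it. Tlr2 measured 12.1, 12.8, 7.37, 7.12 and 8.05 CPM (log2 fold change -0.34, 95% interval -0.94 to 0.27, and -0.50 without mouse 16), with mice 21 and 22 well above the other 3. All 3 genes overlapped between the APP/PS1 groups, and their intervals include 0 as well as decreases by more than 0.9 on the log2 scale.

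The remaining genes had intervals on both sides of 0, and without mouse 16 the log2 fold changes of Tlr13, Tlr4 and Tlr3 were -0.34, -0.31 and -0.25. Tlr13 measured 7.36, 9.09, 6.78, 5.48 and 6.42 CPM in CP2-treated mice (log2 fold change -0.24, 95% interval -0.59 to 0.10). Tlr4 measured 4.39, 4.16, 2.37, 3.07 and 3.25 CPM (log2 fold change -0.23, 95% interval -0.61 to 0.15), and Tlr3 21.7, 23.01, 17.1, 16.7 and 16.8 CPM (log2 fold change -0.15, 95% interval -0.46 to 0.16). Tlr9 measured 3.85, 4.50, 3.57, 3.37 and 3.09 CPM and was the only gene of the 8 whose estimate was not below 0, at 0.06 (95% interval -0.30 to 0.41), a sign that turned in 4 of 18 other settings (-0.01 without mouse 16). For the pair under the filter, exact permutation tests (two-sided, smallest possible p 0.00794) gave p = 0.349 for Tlr5 (0.831, 0.782, 0.440, 0.820 and 0.556 CPM with CP2) and p = 0.849 for Tlr8 (0.288, 0.295, 0.310, 0.433 and 0.346 CPM with CP2). Estimates below 0 were obtained for 7 of the 8 genes, against 52.5% of all genes tested, and the median over the 8 was -0.29, against -0.01 over all genes. Tlr6 passed the filter here only through the vehicle-treated group, where it was higher. These counts therefore describe the genes that passed and support nothing further. Without any filter the Tlr6 log2 fold change was -0.61.

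CP2-treated APP/PS1 mice were finally compared with the same NTG mice, so this comparison shares its controls with that of vehicle-treated mice and its treated mice with that of CP2 against vehicle. Tlr2 (9.50 ± 2.75 CPM, SD, n = 5) was higher by a log2 fold change of 1.79 (SE 0.20, adjusted p = 0.000550 by edgeR). Tlr7 was higher by 1.36 (SE 0.16, adjusted p = 0.000732) and Tlr13 by 1.23 (SE 0.14, adjusted p = 0.000705). Tlr9 was called here, at 0.77 (SE 0.14, adjusted p = 0.00811), while its estimate against NTG in vehicle-treated mice was 0.71, and no test of a difference between these values was made. These 4 of the 7 genes tested were called, all higher, against 6.02% of 16416 genes in either direction and 4.56% higher. None of the 4 overlapped with NTG mice, as was so for 9.73% of all genes in either direction and 6.43% higher. Relative to homeostatic microglia genes Tlr2 (1.15, SE 0.16), Tlr7 (0.72, SE 0.14) and Tlr13 (0.60, SE 0.14) were called higher, as were 1.29% of all genes, and Tlr3 (-0.49, SE 0.10) lower, as were 91.5%. Against the broad microglia genes Tlr2 (0.68, SE 0.15) kept its call, as 0.475% of all genes were called higher. Tlr7 (0.26, SE 0.14) and Tlr13 (0.13, SE 0.15) did not. Tlr3 (-0.96, SE 0.11) and Tlr4 (-0.61, SE 0.18) were called lower there, as were 97.6% of all genes.

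The other genes were not called. Tlr1 had a log2 fold change of 1.25 (95% interval 0.23 to 2.27, adjusted p = 0.158 by edgeR), which passed without NTG mouse 7 (1.92, adjusted p = 0.0238). Tlr4 had 0.49 (95% interval 0.05 to 0.92) and Tlr3 0.14 (-0.09 to 0.37). Tlr6 fell under the filter because mice 23 and 24 were below 1 CPM, and an exact permutation test (two-sided) of its CPM gave p = 0.0873. Tlr8 did not overlap with NTG mice, at 25, 26, 24, 46 and 28 counts against 14, 19, 17 and 10, and the same exact permutation test gave p = 0.00794, the smallest this design allows. Without the filter, edgeR gave Tlr8 a log2 fold change of 0.83 (adjusted p = 0.264). Tlr5 gave p = 0.278 in the exact permutation test.

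**Figure D4:**
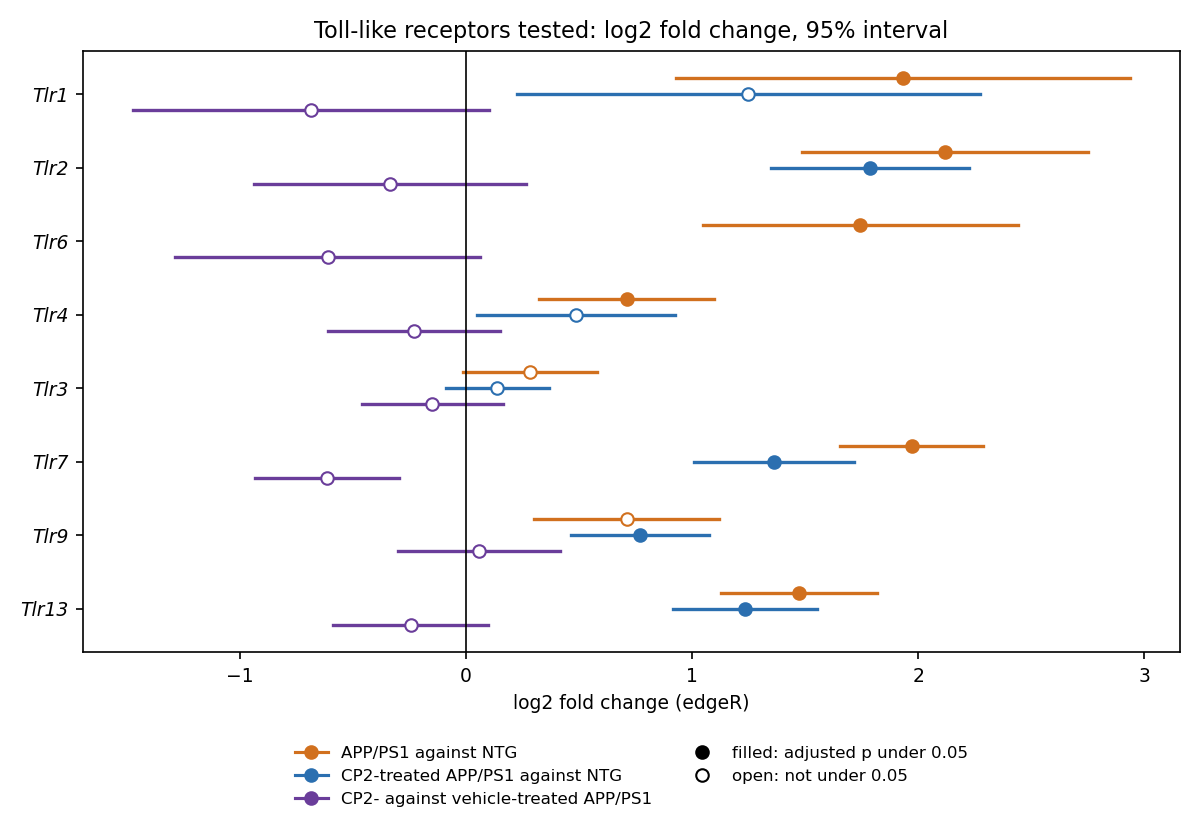
Log2 fold changes (x axis) of the Toll-like receptor genes tested, with 95% intervals as lines, in APP/PS1 against NTG, CP2-treated APP/PS1 against NTG and CP2- against vehicle-treated APP/PS1 mice (n = 4 NTG and 5 in each APP/PS1 group). Filled points have an adjusted p under 0.05. No CP2 against vehicle point is filled, and the Tlr7 interval of that comparison, -0.93 to -0.30, is the only one of its 8 that excludes 0.

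Genes around the receptors were examined from 5 lists of known pathway members. Of 66 such genes tested in APP/PS1 against NTG mice 23 were called by edgeR, all of them higher, against 5.68% of all genes, with a median log2 fold change of 0.23 against -0.00 over all genes. The lists were chosen with results of these data known, so their counts are a description. Of the 23, Btk, Il1a, Ccl3, Ccl4 and Cxcl10 passed the filter only through the APP/PS1 group. Without mouse 16 the count was 29.

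Co-receptors and trafficking factors had 6 of 14 genes called, all higher. Ctss, a protease that cleaves endosomal receptors, averaged 74.5 CPM in NTG and 238 CPM in APP/PS1 mice (log2 fold change 1.68, SE 0.15, adjusted p = 0.000202 by edgeR). Unc93b1, which carries the nucleic acid receptors to endosomes, rose by 1.09 (SE 0.13) on the log2 scale. Cd14, a co-receptor of Tlr4 and Tlr2, rose by 1.86 (SE 0.24), and Ly86, the partner of the Tlr4-like protein Cd180, by 1.80 (SE 0.24).

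Adaptors and kinases had 4 of 20 called, all higher. Btk rose by 1.53 and Pik3ap1, an adaptor to phosphoinositide signalling, by 0.98 on the log2 scale, and Irak4, the first kinase recruited by Myd88, rose by 0.29 and Tab2 by 0.23. The adaptor Myd88 had a log2 fold change of 0.37 (adjusted p = 0.0701 by edgeR) and Ticam1, the adaptor of Tlr3, 0.26 (0.0996), both chosen after their values were seen and neither called.

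Of the transcription factors 4 of 12 were called higher. These were Irf8 (1.72, SE 0.18) and Spi1, which encodes PU.1 (1.26, SE 0.14), both factors of the myeloid lineage, and Irf7 (1.52, SE 0.32) and Irf5 (0.37, SE 0.06), which act below Tlr7 and Tlr9. Negative regulators had 4 of 14 called higher, namely the phosphatases Ptpn6 (1.64) and Inpp5d (1.18), Socs3 (1.12) and the inhibitory kinase homologue Irak3 (0.86).

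Of 19 output genes of the pathway only 6 could be tested, and 5 of them were called higher. Cxcl10 averaged 0.461 CPM in NTG and 4.89 CPM in APP/PS1 mice (log2 fold change 3.41, SE 0.45), Ccl3 0.398 and 4.13 CPM (3.35, SE 0.40) and Ccl4 0.249 and 1.91 CPM (2.94, SE 0.26). As these 3 chemokines and Il1a, chosen after its values were seen, passed the filter only through the APP/PS1 group, 4 of the 5 calls were among genes selected for high values there. Icam1, an adhesion molecule, rose by 1.34 (SE 0.21).

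In CP2- against vehicle-treated APP/PS1 mice 0 of 67 pathway genes were called by edgeR or DESeq2. By edgeR 1 was higher and 3 were lower at an unadjusted p under 0.05, a level that 6.55% of all genes reached in either direction. Among the genes tested, the largest estimates per list, in either direction, were -0.67 for Cxcl10 (SE 0.37) and 0.62 for Fos, a subunit of AP-1 (SE 0.46). In the other lists they were -0.38 for Socs3 (SE 0.23), -0.32 for Ctss (SE 0.17) and -0.22 for the kinase gene Ikbke (SE 0.19). Estimates above 0 were also found for Dusp1 (0.34), Lbp (0.26), Jun (0.24) and Traf3 (0.21), and below 0 for Irf7 (-0.50), Irak3 (-0.35) and Ticam1 (-0.19). Over the 67 genes 23 estimates were above and 44 below 0, with a median of -0.06, against 52.5% of all genes below 0 and a median of -0.01. Of the 67, 2 passed the filter only through the vehicle-treated group and 1 only through the CP2-treated group. The output genes under the filter were not tested, and those named here were chosen after their values were seen. Ccl5 averaged 0.877 CPM with vehicle and 0.349 CPM with CP2, and Ccl2 0.458 and 0.199 CPM. Means of Cxcl2 and Il10 were higher with CP2, and those of the other output genes under the filter were lower. In CP2-treated APP/PS1 against NTG mice 21 of 65 were called higher and 1 lower. Over all genes tested there, 4.56% were called higher and 6.02% in either direction. The 1 called lower was Tril, an accessory protein of Tlr4 and Tlr3 (-0.30, adjusted p = 0.0426 by edgeR), chosen after its values were seen. Its estimate for vehicle-treated APP/PS1 against NTG mice was lower still, at -0.48, but not called (adjusted p = 0.0854 by edgeR). With CP2 against vehicle the Tril estimate was 0.17 (SE 0.13), also not called. Btk (1.40), Irf8 (1.50), Spi1 (1.04) and Ccl3 (3.03) were among the 21 pathway genes called higher in CP2-treated APP/PS1 against NTG mice. Of these, Btk and Ccl3 had passed the filter only through the CP2-treated group.

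**Figure D5:**
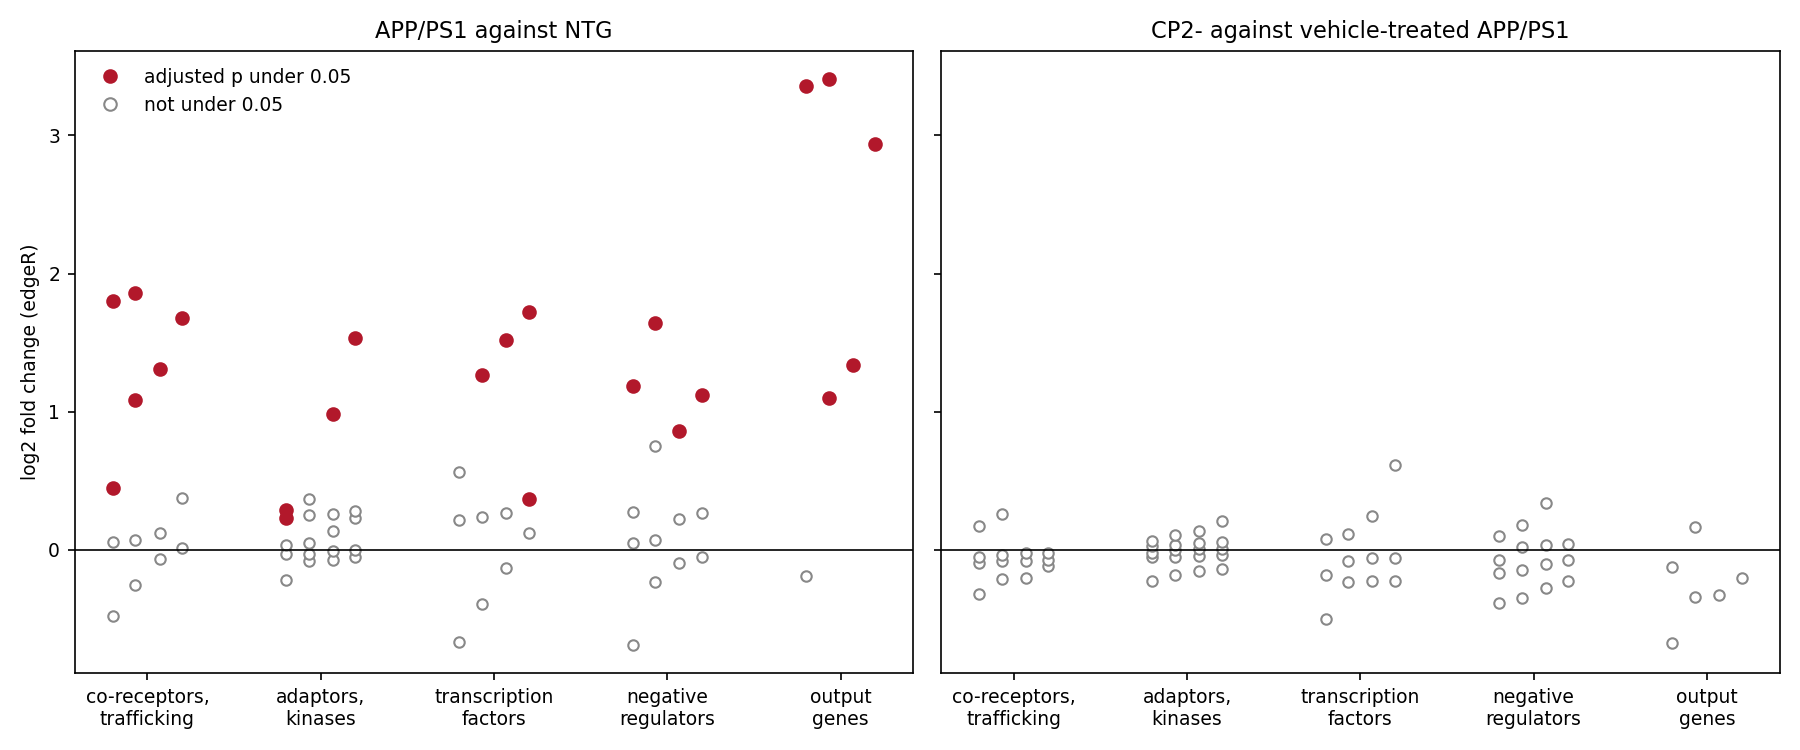
Log2 fold changes (y axis) of the genes tested in 5 lists of Toll-like receptor pathway genes, in APP/PS1 against NTG mice (left) and CP2- against vehicle-treated APP/PS1 mice (right), with 1 point per gene. Filled points have an adjusted p under 0.05; 23 of 66 are filled on the left and 0 of 67 on the right.

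How the genes varied from mouse to mouse within groups was described with Pearson's r of log2 CPM after each group mean was subtracted, over 14 mice. These values share libraries, dissections and depth, and they carry no test. Tlr2 and Tlr3 varied together (r = 0.94, and 0.89 without mouse 16), as did Tlr13 and Tlr2 (0.74, 0.53), Tlr13 and Tlr9 (0.73, 0.70) and Tlr7 and Tlr9 (0.70, 0.67). Tlr1 was loosely tied to Tlr2, its partner (0.27, 0.36).

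The genes differed in how closely they followed cell type lists. Tlr2 followed the mean of 10 astrocyte genes at r = 0.97 (0.95 without mouse 16), the 9 broad microglia genes at 0.79 (0.63), the plaque-associated genes at 0.69 (0.48), the homeostatic microglia genes at 0.34 (0.25) and 10 neuron genes at -0.89 (-0.80). Tlr3 followed the astrocyte genes at 0.92 (0.84), the broad microglia genes at 0.70 (0.48) and the homeostatic microglia genes at 0.28 (0.16). Tlr7 followed the broad list at 0.78 (0.81), the plaque-associated list at 0.77 (0.79), the homeostatic list at 0.71 (0.68) and the astrocyte list at 0.58 (0.56). For Tlr9 the values were 0.81 (0.80) with the broad, 0.63 (0.56) with the plaque-associated, 0.81 (0.80) with the homeostatic and 0.58 (0.49) with the astrocyte list. Tlr13 followed the broad list at 0.82 (0.70), the astrocyte list at 0.80 (0.65) and the homeostatic list at 0.61 (0.60). Tlr4 followed the astrocyte genes at 0.72 (0.67) and the broad microglia genes at 0.53 (0.40). The astrocyte list as such summed to 5900.5 to 6278 CPM in NTG and 5759.9 to 8021 CPM in APP/PS1 mice, and 1 of its 10 genes was called higher and 1 lower.

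Among all 16521 genes tested in any comparison, the closest in pattern to Tlr2 were Aspg (0.98, and 0.96 without mouse 16), 1700084C01Rik (0.97, 0.96) and Fxyd1 (0.97, 0.94). Tlr3 was closest to S100a6 (0.96), Uap1l1 (0.96) and Sgsh (0.96). Among the genes closest to Tlr7 were Lyn, a kinase of blood and myeloid cells (0.91), and Pde3b (0.90). Tlr13 was closest to Klk8 (0.93), Leprel1 (0.92) and Cebpd (0.92), and Tlr9 to Mt2 (0.91), Zfp764 (0.91) and Havcr2 (0.89). Tlr4 was closest to Supt3 (0.90), Gstm2 (0.90) and Pih1d1 (0.90), and Tlr1 to Strada (0.86), A230107N01Rik (0.86) and Odf2l (0.84).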

How the data were processed

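RNA was measured in 14 mice with TruSeq libraries and paired 101-base reads. Per the labels and the study's methods, alignment to mm10 was by TopHat2 and counting per Ensembl gene by featureCounts, where a read counts on every gene it overlaps; versions and the strand setting are not given in the sources used here. The authors deposited raw read counts, used in all tests, and RPKM values (scaled by gene length and library size), used to compare levels between genes.

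Groups came from the sample titles. The study tested with DESeq2; here edgeR 4.0.16 (R 4.3.3, TMM factors, quasi-likelihood test, Benjamini-Hochberg adjustment over all genes tested) was the main test, fitted on the 2 groups compared. Tests were limited to genes with robust CPM over 1 in all mice of 1 or more groups. Standard errors and 95% intervals were derived from the test statistic. Toll-like receptor genes under the filter were tested by exact permutation of CPM. Microglia-relative values used the mean log CPM of 9 genes as offset. The procedure was tested on simulated data: in APP/PS1 against NTG mice (16417 genes) it called 92% of genes changed by 1 and 100% of those changed by 2 on the log2 scale. Of its calls there 5.88% were genes left unchanged. The changed genes were drawn from those averaging over 2 CPM. Smaller changes, genes at lower levels and a mouse that stands apart were not simulated. Alternatives were DESeq2 1.42.0, RLE and upper-quartile factors, other filters, all 3 groups in one fit, limma-voom (limma 3.58.1), the share of ribosomal RNA-like counts as covariate, and each mouse left out. Correlations without mouse 16 and the plaque-associated microglia reference were added after seeing the data. Promoters were searched, and transcripts compared, with Python 3.11.15, against RefSeq windows and GENCODE vM21.

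The 10 genes and all lists were chosen with earlier results of these data known. Named pathway genes were at most 4 per list and comparison, those with the smallest p among those called or, where none was called, the largest log2 fold change in either direction. Genes named outside this rule are marked as chosen after their values were seen. They were Il1a, Myd88 and Ticam1 in APP/PS1 against NTG mice, Ccl5, Ccl2, Cxcl2 and Il10 in CP2- against vehicle-treated mice, and Tril. No 2 replicates agreed within sampling noise (26 pairs, lowest chi-square per degree of freedom 9.86). The labels give no batch. Nothing beyond the mouse number separates replicates, so p-values measure the spread between these mice. Some genes of these lists are not reported here.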

Additional observations from a re-analysis of the deposited data

Results flagged for a closer look

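Tlr1 in NTG mice was flagged because 1 mouse lay far from the others. It measured 1.84 CPM in NTG mouse 7, from 162 counts, and the nearest of the other 3 mice had 0.651 CPM, so that the gap took up 0.859 of the group's range. Tlr6, which shares sequence with Tlr1, was also highest in this mouse, at 94 counts against 25 to 50 in the other NTG mice. This was 1 of 30 groups of values examined, and chance flags about 1 in 20.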

How the results depend on the processing

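Counts of 10 to 87 per mouse for Tlr5 and Tlr8 limit the precision of their values, and intervals cover the spread between mice only. No paired analysis was possible because the mice of different groups share no replicate number.

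The number of genes called in APP/PS1 against NTG mice, 932, was 1667 with DESeq2 and 1563 with limma-voom, and with a mouse left out it ranged from 578 (NTG mouse 9) to 1474 (APP/PS1 mouse 16). In CP2- against vehicle-treated mice 1 gene was called, 23 with DESeq2, 0 with all 3 groups in one fit, 2 with the ribosomal share as covariate and 0 to 1 with a mouse left out. In CP2-treated APP/PS1 against NTG mice 989 genes became 1670 with DESeq2 and 572 to 1123 with a mouse left out. The cause of these shifts was not tested.

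Of the Toll-like receptor genes 4 to 8 were called in APP/PS1 against NTG mice with a mouse left out, and 5 to 7 under the other settings. Tlr2, Tlr6, Tlr7 and Tlr13 were called in all 17 alternatives. Tlr1 and Tlr4 were lost with the ribosomal share as covariate (adjusted p 0.105 and 0.120 by edgeR). With raw library sizes the Tlr8 difference was 0.162 CPM (exact permutation test, two-sided, p = 0.0476). In CP2- against vehicle-treated mice DESeq2 called 1 Toll-like receptor gene.

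With the plaque-associated reference, Tlr6 (-0.20), Tlr7 (-0.011) and Tlr13 (-0.56) in APP/PS1 against NTG mice turned sign, and Tlr1 and Tlr2 lost their call. That list itself rose more than the homeostatic one. The other signs that turned were of estimates that were not called. Tlr9 under CP2 was -0.087 with the ribosomal share as covariate and -0.029 to 0.16 with a mouse left out. Relative to homeostatic microglia genes, Tlr4 in APP/PS1 against NTG mice ranged from -0.12 to 0.10 and Tlr3 under CP2 from -0.14 to 0.091 with a mouse left out. With the broad list Tlr3 under CP2 was 0.056, and Tlr9 in CP2-treated APP/PS1 against NTG mice was -0.32.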

Other observations

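CP2-treated mice 21 and 22 had the highest Tlr2, Tlr3, Tlr4, Tlr7, Tlr9 and Tlr13 values of their group. These were also the CP2-treated mice with the largest sums of astrocyte genes (7344 and 7367 CPM, against 6087 to 6326 CPM in mice 23 to 25). The same held for the sums of broad microglia genes (942 and 973 CPM, against 675 to 788 CPM). Tlr1, Tlr5, Tlr6 and Tlr8 did not follow this order. For example, mouse 25 had the highest Tlr6 at 1.63, 1.79, 0.647, 0.773 and 2.04 CPM in mice 21 to 25. These values are given as measured, and their part in the comparisons was not tested.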
